A study of Homo sapiens with 6 samples.

Results

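The genes of the cAMP and CREB response were followed in MCF10A cells with and without growth factors. The set was chosen by name, with earlier results of these data known. It held 10 genes, CREM, NR4A1, NR4A2, NR4A3, PDE4B, PDE4D, SIK1, DIO2, PPARGC1A and PRKACB, of the 19198 genes in the deposited table. All 10 genes were found in the table and all 10 passed the filter on low values, a mean of at least 10 normalized counts over the samples. MCF10A is an established, non-tumorigenic line of human mammary epithelial cells. RNA-Seq was available for 6 samples, 3 grown with growth factors (control) and 3 after growth factor depletion, which took hydrocortisone (0.5 µg/ml), cholera toxin (100 ng/ml), EGF (20 ng/ml) and insulin (10 µg/ml) out of the medium. Horse serum at 5% was present in both conditions. The study's methods kept depleted cells without these agents for days, until their shape changed. The day of RNA collection is not given in the sources used here. Nothing says that the 3 samples of a condition came from separate cultures, so the p-values measure the spread between these samples, which may be technical. The design text of the series gives fewer replicates than the labels, and the labels were used. All values come from 1 line, and the 4 agents were removed together, so that the part of each agent cannot be told apart.

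Cyclic AMP (cAMP) is made by adenylyl cyclases, which are switched on by the stimulatory G protein downstream of hormone and prostaglandin receptors. Cholera toxin, one of the agents removed here, locks this G protein in its active form and so raises cAMP. cAMP releases the catalytic subunits of protein kinase A, which phosphorylate CREB. CREB bound to cAMP response elements then switches on a group of fast response genes. The pathway limits itself, because its targets include phosphodiesterases that break cAMP down, the CREM repressor and the salt-inducible kinase SIK1, which keeps the coactivators of CREB out of the nucleus.

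The cAMP response element is the DNA sequence that CREB binds, so its matches in the promoters of the 10 genes were searched. The full element TGACGTCA and its short forms TGACG or CGTCA were searched on both strands of RefSeq promoter windows (GRCh38.p14), which run from 250 bases before to 50 bases after a transcription start. The full element reads the same on both strands and contains both short forms, so a window with the full element also counts as a window with a short form. RefSeq windows were at hand for 9 of the 10 genes, NR4A2 being the one with no entry, and came to 34 windows. The full element lay in 3 of the 34 windows (8.82%), and 2 of these 3 are overlapping CREM windows that hold the same match. Among all 35116 windows 649 held the full element (1.85%). A short form lay in 9 of the 34 windows (26.5%), against 8622 of all windows (24.6%). Counted by gene, 2 of the 9 held the full element (22.2%) and 7 a short form (77.8%), against 2.25% and 28.4% of all 27305 genes, but the 9 genes have more windows each than the average gene. CREM and DIO2 held the full element, PRKACB, NR4A3, SIK1, PDE4D and PPARGC1A held only short forms, and no match was found in the 2 windows of NR4A1 or the 6 windows of PDE4B. The stretches below are the full matches of CREM and DIO2, and the short matches of NR4A3 and SIK1, which hold several and no full element, and of PRKACB, the gene that passed the test below. DIO2 has 1 more short match, and CREM has 2 more in a window of another start, which are not shown. They are written 5′ to 3′ along the gene's strand, with the matched letters in capitals. A match describes the letters in the window and does not show that CREB binds there.
CREM, chr10:35195841-35195870, plus strand, 32 to 61 bases before an internal start of the gene and within an annotated CREM exon: gagctgcacatTGACGTCAgctccgagtca
DIO2, chr14:80212256-80212285, minus strand, 78 to 107 bases before a start: ctctttctcaaTGACGTCAagatctttacc
NR4A3, chr9:99821765-99821817, plus strand, 68 to 120 bases before the start: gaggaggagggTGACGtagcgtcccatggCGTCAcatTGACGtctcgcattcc
NR4A3, chr9:99821849-99821875, plus strand, 10 to 36 bases before the start: tgtggcataaaTGACGtgccgagagag
SIK1, chr21:43427242-43427279, minus strand, 111 to 148 bases before the start: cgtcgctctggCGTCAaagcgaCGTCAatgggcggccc
SIK1, chr21:43427333-43427359, minus strand, 202 to 228 bases before the start: catcccgcgcgCGTCAgagccgccagt
PRKACB, chr1:84077938-84077964, plus strand, 115 to 141 bases before a start and within an annotated exon of the divergent transcript PRKACB-DT: ccgggcctgcgCGTCActtccggcgcg

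Depth was between 7472418 and 28672630 recovered reads per sample, and 3 reads, taken as the floor, correspond to 1.76 to 6.71 normalized counts. The floor covers counting error only. Deviations of a sample from its condition's mean correlated with exon length, from -0.26 (control replicate 2) to 0.23 (control replicate 3, Spearman, 16782 genes). The same correlation was 0.01 for the difference between conditions. The part of exon length in the spread of single genes was not tested. Over the 500 genes with the largest variance, the conditions separated on the first principal component (81.6% of the variance). Depleted replicate 1 stood away from the other depleted samples on the second (8.1%), with a score of 35.27 where replicate 2 had -19.46 and replicate 3 had -16.18, so each call below is also given without that sample. The labels describe the cells as luminal ductal. Of 7 luminal markers 6 were detected, ELF5 being the exception, and their summed level, mostly KRT8 and KRT18, was 5538 to 15566 normalized counts in the control and 17240 to 29139 after depletion. KRT8 and KRT18 each overlapped between conditions and were not called by limma. The luminal marker KRT19 was called lower by limma (log2 fold change -2.31, adjusted p 0.0196). ESR1 (-2.99, adjusted p 0.0632 by limma) and FOXA1 (-0.72, 0.343) were also lower in every depleted sample and not called by limma. DESeq2 called ESR1 as lower (adjusted p 0.00175). GATA3 (-0.28) overlapped between conditions. The 6 basal markers summed to 42471 to 65489 and 40940 to 148153, while TP63, one of them, was called lower (-4.18, adjusted p 0.027 by limma). KRT17 ran from 5881.7 to 16142.4 in the control and from 19235.7 to 123479.8 after depletion. Limma did not call KRT17 (2.44, adjusted p 0.0877), and DESeq2 called it higher (adjusted p 3.8e-04). KRT14 (2.69) was higher in the mean, and KRT5 (-2.04), ITGA6 (-1.15) and ITGB4 (-0.20) were lower, none called by limma. Of these DESeq2 called only ITGA6, as lower (adjusted p 0.0489). The basal keratin gene KRT5 was at 562.0 in depleted replicate 1 and between 10908.3 and 38503.4 in the other 5 samples. Of 3 leukocyte markers the table lists PTPRC, at 0 to 2 in the control and 10 to 14 after depletion. The 3 endothelial markers summed to 100 to 1009 and 240 to 1610, and CDH5 among them was called higher (3.37, adjusted p 0.0282 by limma). The 5 mesenchymal markers summed to 3787 to 11216 in the control and 109772 to 186444 after depletion. The 3 epithelial markers summed to 29091 to 55230 and 5110 to 26764, and none of the 3 was called by limma or edgeR, 1 of them having an unadjusted p under 0.05. DESeq2 called that gene, DSP. Their part in the results below was not tested. These are bulk samples, in which a smaller share of cells of one type and less RNA per cell cannot be told apart.

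Growth factor depletion did not move the 10 genes in a shared direction. PRKACB, a catalytic subunit of protein kinase A, rose in every depleted sample, and it was the 1 gene of the 10 that passed the test. The other 9 genes did not pass, with 4 of them higher and 5 lower in the mean. All 16988 genes that passed the filter were tested with limma, as log2 of the normalized count plus 1, and calls needed both a 2-fold difference and a p under 0.05 after Benjamini-Hochberg adjustment over all of them. Over all genes tested 6.33% were called, 4.36% as higher and 1.97% as lower after depletion. Of the 10 genes, 1 was called as higher and 0 as lower by limma, with 2 genes (1 higher, 1 lower) at an unadjusted p under 0.05. Of all 16988 genes tested, 3400 (1936 higher and 1464 lower) were at an unadjusted p under 0.05 by limma. This is the background for every such count by limma with the main settings. On the recovered reads, the quasi-likelihood test of edgeR called 1 of the 10, where it called 5.72% of all genes. DESeq2 called 2, PRKACB and PDE4B, where it called 12.4% of all genes. The median log2 fold change of the 10 was -0.05, with a range from -1.94 to 1.64, against a median of -0.03 over all genes. A share of 1 gene in 10 is near these background shares and says nothing of the family as a whole.
The samples of the conditions did not overlap for 3 of the 10 genes. CREM and PRKACB were higher in all 3 depleted samples, as were 13.5% of all genes tested, and PDE4B was lower in all 3, as were 12.1% of all genes. The other 7 genes overlapped between conditions.

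**Figure D1:**
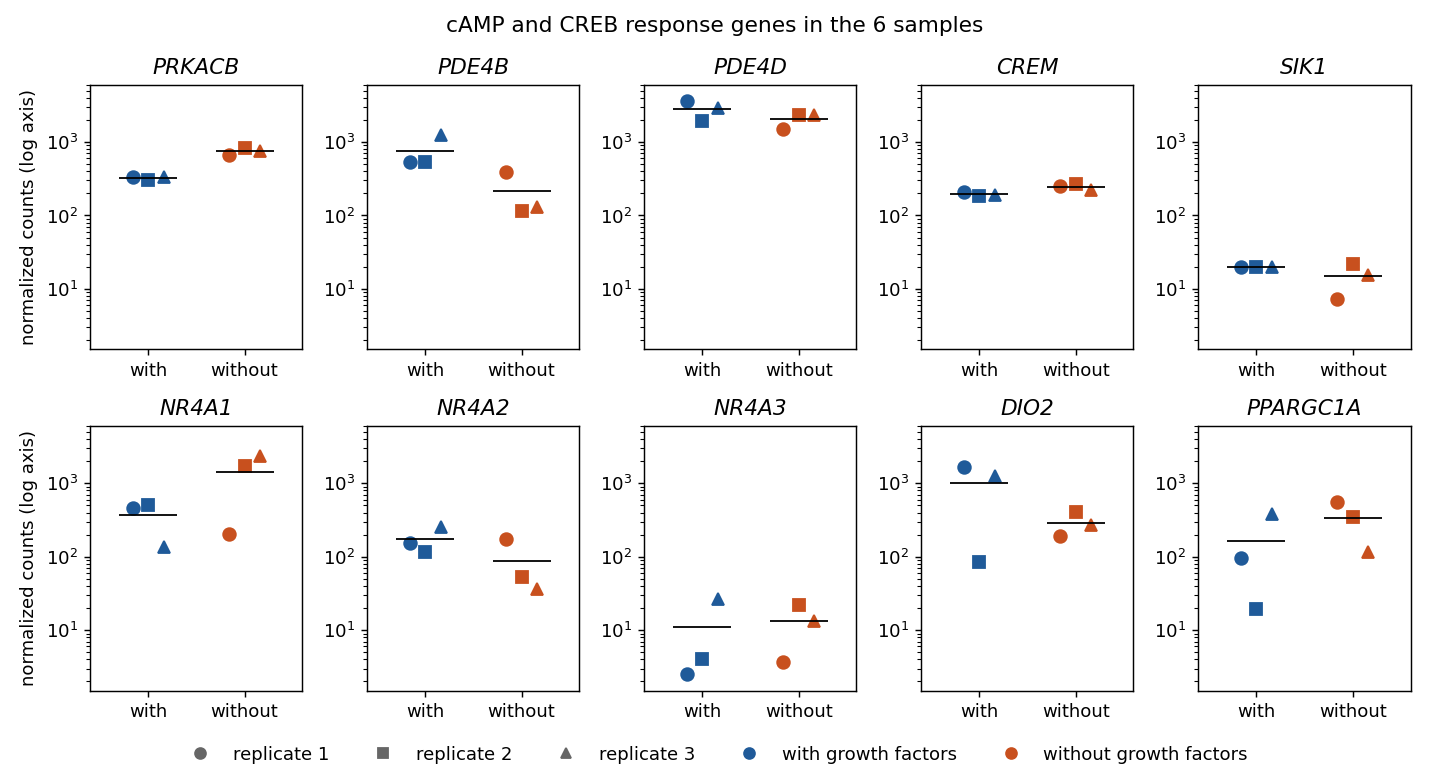
Normalized counts of the 10 cAMP and CREB response genes in the 6 samples, on a log axis shared by all panels. Points are single samples (blue with growth factors, orange without, the shape giving the replicate number) and lines are condition means. PRKACB lies between 308.7 and 331.5 in the control samples and between 667.2 and 828.8 in the depleted samples, while DIO2, PPARGC1A and the 3 NR4A genes overlap between conditions.

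PRKACB encodes the beta catalytic subunit of protein kinase A, the enzyme that carries the cAMP signal to CREB (ENSG00000142875, chr1:84078062-84238498, plus strand). Its normalized counts were 330.9, 308.7 and 331.5 in the control and 667.2, 828.8 and 744.6 after depletion. Every depleted sample was at least 2-fold above every control sample, and the samples within a condition lay close together. The mean rose from 324 ± 13.0 to 747 ± 80.8 (SD, n = 3 each), a log2 fold change of 1.20 (SE 0.26, 95% interval 0.59 to 1.8), with an adjusted p of 0.0337 by limma. By edgeR the adjusted p was 0.0329 and by DESeq2 9.4e-04. Limma did not call PRKACB without the trend (0.0612) or with same-numbered samples as blocks (0.139).
The size of the rise in PRKACB depended little on any single sample, but the call did. With each sample left out in turn, the log2 fold change stayed between 1.12 and 1.28, all above 0. The call was kept only without control replicate 3 (adjusted p by limma 0.0191). It was lost without depleted replicate 1 (0.0652), 2 (0.169) or 3 (0.161) and without control replicate 1 (0.0937) or 2 (0.0932). PRKACB is also among the genes the study drew in its Runx networks, which were chosen on these samples, so that listing is no independent evidence of its direction.
The samples of PRKACB were among the least variable of the table. On the log2 scale its SD was 0.06 in the control, larger than that of only 1.1% of genes, and 0.16 after depletion, larger than that of 15.4%.

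The cAMP phosphodiesterases among the 10 genes, PDE4B and PDE4D, both had lower means after depletion, and neither passed the test by limma. PDE4B (ENSG00000184588, chr1:65792514-66374579, plus strand) was at 528.9, 527.3 and 1232.6 normalized counts in the control and at 395.4, 116.7 and 129.7 after depletion. All depleted samples were below all control samples, with control replicate 3 the highest and depleted replicate 1 the nearest to the control. The mean was 763 ± 407 against 214 ± 157 (SD, n = 3 each), and the log2 fold change was -1.94 (SE 0.55, 95% interval -3.19 to -0.69). On the log2 scale of limma no other of the 10 genes differed more, though by edgeR and DESeq2 NR4A1 did (1.97 for NR4A1 and -1.83 for PDE4B by DESeq2). The unadjusted p of PDE4B was 0.00691 and the adjusted p 0.0787 by limma. The adjusted p was 0.119 by edgeR and 0.0206 by DESeq2, which called it. Without depleted replicate 1 the log2 fold change of PDE4B was -2.5 and limma called it (adjusted p 0.0243). Leaving out any other sample gave -2.15 to -1.53 with no call.
PDE4D (ENSG00000113448, chr5:58969038-60522120, minus strand) was at 3575.5, 1960.8 and 2879.4 normalized counts in the control and at 1514.8, 2346.0 and 2314.2 after depletion. The ranges overlapped, since control replicate 2 lay below 2 of the depleted samples. The log2 fold change of PDE4D was -0.43 (SE 0.33, 95% interval -1.19 to 0.32, adjusted p 0.541 by limma). The interval allows a fall of more than 2-fold as well as a small rise.

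**Figure D2:**
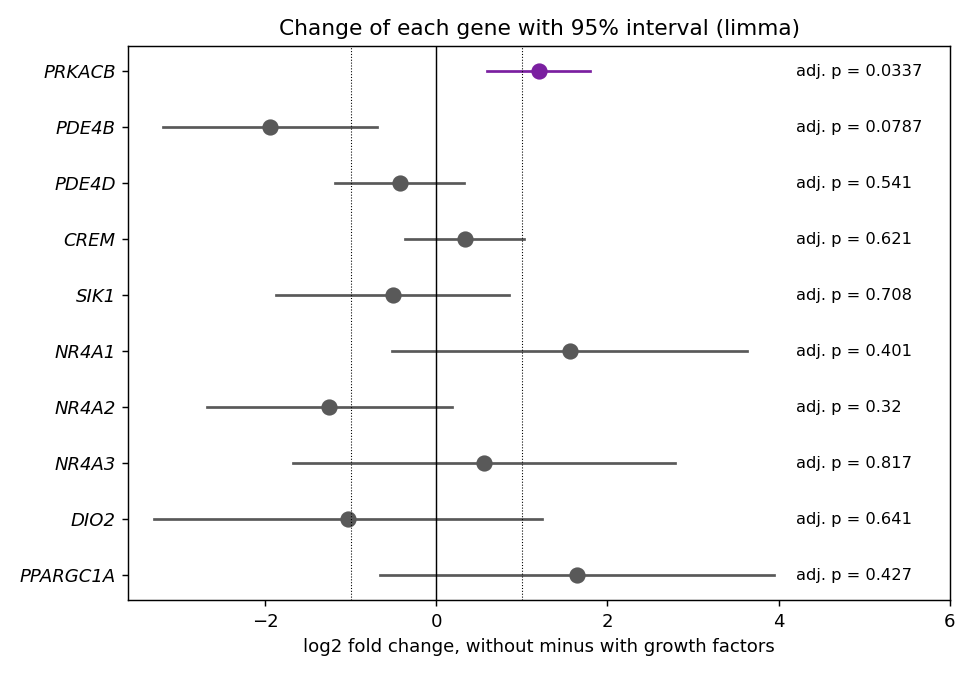
Log2 fold change of each of the 10 genes, without minus with growth factors, with its 95% interval from limma. The solid line marks no change, the dotted lines a 2-fold change, and the adjusted p is printed at the right. The intervals of PRKACB and PDE4B lie clear of 0, and PRKACB, in purple, is the 1 gene called.

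CREM, whose short isoform ICER is a cAMP-induced repressor of the same response elements, showed a small difference with little spread (ENSG00000095794, chr10:35126791-35212958, plus strand). It was at 211.8, 182.8 and 191.8 normalized counts in the control and at 250.8, 264.9 and 223.6 after depletion. Each depleted sample was above each control sample, by a narrow margin. The mean was 195 ± 14.9 against 246 ± 21 (SD, n = 3 each), and the log2 fold change was 0.33 (SE 0.31, 95% interval -0.37 to 1.03, adjusted p 0.621 by limma). The interval leaves no room for a fall of 2-fold. The SD of CREM on the log2 scale was 0.11 in the control and 0.12 after depletion, against medians of 0.6 and 0.35 over all genes. The values are sums over the gene, so ICER and the full-length isoforms were not separated. The full response element printed above lies before 1 internal start and begins at position 3 after another. Which start gives ICER was not examined.

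SIK1, a cAMP-induced kinase that phosphorylates the coactivators of CREB, had low counts and a near-identical copy in the table. The row of SIK1 (ENSG00000142178, chr21:43414483-43427131, minus strand) held 20.1, 19.9 and 19.7 normalized counts in the control and 7.3, 21.6 and 15.7 after depletion. Depleted replicate 2 was above all control samples and depleted replicates 1 and 3 were below them. The log2 fold change of SIK1 was -0.51 (SE 0.60, 95% interval -1.87 to 0.85, adjusted p 0.708 by limma), from 7 to 34 reads per sample.
The copy (ENSG00000275993, chr21:6111131-6123778, plus strand) is annotated in Gencode v44 as an artifact, a duplication of SIK1 in the genome build. Of the 5138 windows of 100 bases, the read length, in SIK1's transcripts 80.3% also occur in the copy. A read from such a window cannot be placed on one of them, so the row of SIK1 is uncertain. The row of the copy held 159.2, 326.9 and 272.5 normalized counts in the control and 51.3, 255.7 and 243.7 after depletion, with a log2 fold change of -0.71 (SE 0.64, adjusted p 0.613 by limma). Between 87.5% and 94.3% of the normalized counts of both rows together stood in the row of the copy. Added together, the rows held 179.2, 346.8 and 292.2 in the control and 58.6, 277.3 and 259.4 after depletion. The sums overlapped between conditions, with means of 272.7 ± 85.5 and 198.4 ± 121.4 (SD, n = 3 each) and a log2 fold change of -0.70. Depleted replicate 1 was the lowest sample in both rows and in the sum. None of the other 9 genes shared a window of this length with another gene's transcripts.

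**Figure D3:**
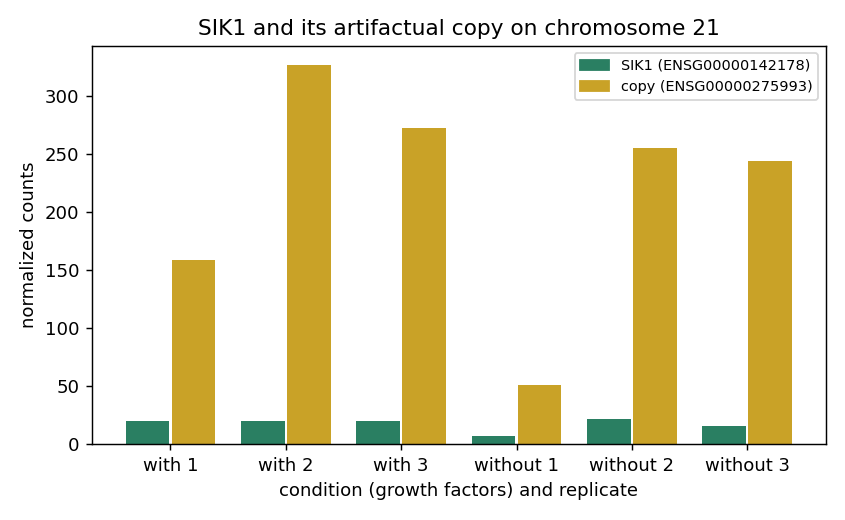
Normalized counts in the row of SIK1 (green) and in the row of its artifactual copy on chromosome 21 (yellow), by condition and replicate. The row of SIK1 does not exceed 21.6, while the row of the copy has its lowest value, 51.3, in depleted replicate 1 and its highest, 326.9, in control replicate 2.

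The NR4A genes encode orphan nuclear receptors that are immediate early targets of CREB, and the 3 of them did not move together. NR4A1 (ENSG00000123358, chr12:52022832-52059507, plus strand), also known as NUR77, was at 467.5, 505.6 and 135.8 normalized counts in the control and at 202.3, 1741.4 and 2332.1 after depletion. Depleted replicates 2 and 3 were above all control samples, whereas depleted replicate 1 lay below control replicates 1 and 2. The mean was 370 ± 203 against 1425 ± 1100 (SD, n = 3 each), and the log2 fold change was 1.56 (SE 0.91, 95% interval -0.52 to 3.63, adjusted p 0.401 by limma). Without depleted replicate 1 it was 2.66 and limma called it (adjusted p 0.0438). Without any one of the other samples it was 0.90 to 1.89, with no call. The SD of NR4A1 among the depleted samples was 1.92 on the log2 scale, larger than that of 98.2% of genes. An antisense gene, NR4A1AS, shares 10.34% of its exon bases, and the strand setting of the counting is not given in the sources used here.
NR4A2 (ENSG00000153234, chr2:156324437-156342348, minus strand), also known as NURR1, was at 155.4, 115.4 and 252.8 normalized counts in the control and at 173.9, 52.5 and 35.8 after depletion. Here depleted replicates 2 and 3 were below all control samples and depleted replicate 1 was within the control range. The log2 fold change was -1.25 (SE 0.63, 95% interval -2.68 to 0.18, adjusted p 0.320 by limma). Without depleted replicate 1 it was -1.91 and stayed uncalled (adjusted p 0.0912). In these samples NR4A1 and NR4A2 thus stood on opposite sides of the control in depleted replicates 2 and 3.
NR4A3 (ENSG00000119508, chr9:99821855-99866891, plus strand), also known as NOR1, was the lowest of the 3. It was at 2.5, 4.1 and 26.6 normalized counts in the control and at 3.7, 22.3 and 13.4 after depletion, from 2 to 34 reads per sample. The highest and the lowest samples were both controls, and control replicate 1, with 2 reads, lay under the floor. Its log2 fold change of 0.56 (SE 0.98, 95% interval -1.68 to 2.79, adjusted p 0.817 by limma) had no stable sign, being -0.03 without control replicate 1 and -0.01 after quantile normalization. A difference of NR4A3 between conditions was not detected. Its SD on the log2 scale was 1.58 in the control and 1.19 after depletion, larger than that of 93.3% and 93.5% of genes. The part of depth in this spread was not tested.

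DIO2 and PPARGC1A, cAMP-induced genes known from thermogenic fat, were expressed in these cells with the widest spread among the control samples. DIO2 encodes the deiodinase that turns thyroxine into active triiodothyronine (ENSG00000211448, chr14:80197526-80387757, minus strand). It was at 1650.5, 85.5 and 1263.1 normalized counts in the control and at 194.0, 406.5 and 268.3 after depletion. Control replicates 1 and 3 were above all depleted samples and control replicate 2 was below them. The control samples differed 19.3-fold from lowest to highest, and their SD of 2.35 on the log2 scale was larger than that of 98.8% of genes. The log2 fold change was -1.03 (SE 0.99, 95% interval -3.30 to 1.24, adjusted p 0.641 by limma). Without control replicate 2 it was -2.38 and limma called it (adjusted p 0.0209), and without control replicate 1 it was -0.25 (adjusted p 0.944).
PPARGC1A encodes PGC-1 alpha, a coactivator that drives mitochondrial biogenesis (ENSG00000109819, chr4:23755041-23904089, minus strand). It was at 96.5, 19.3 and 378.7 normalized counts in the control and at 558.3, 347.5 and 116.3 after depletion. Control replicates 1 and 2 were below all depleted samples, while control replicate 3 was above 2 of them. The log2 fold change was 1.64 (SE 1.01, 95% interval -0.66 to 3.95, adjusted p 0.427 by limma). It ran from 0.56 without control replicate 2 to 2.67 without control replicate 3, with no call in either case (adjusted p 0.785 and 0.0758).

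**Figure D4:**
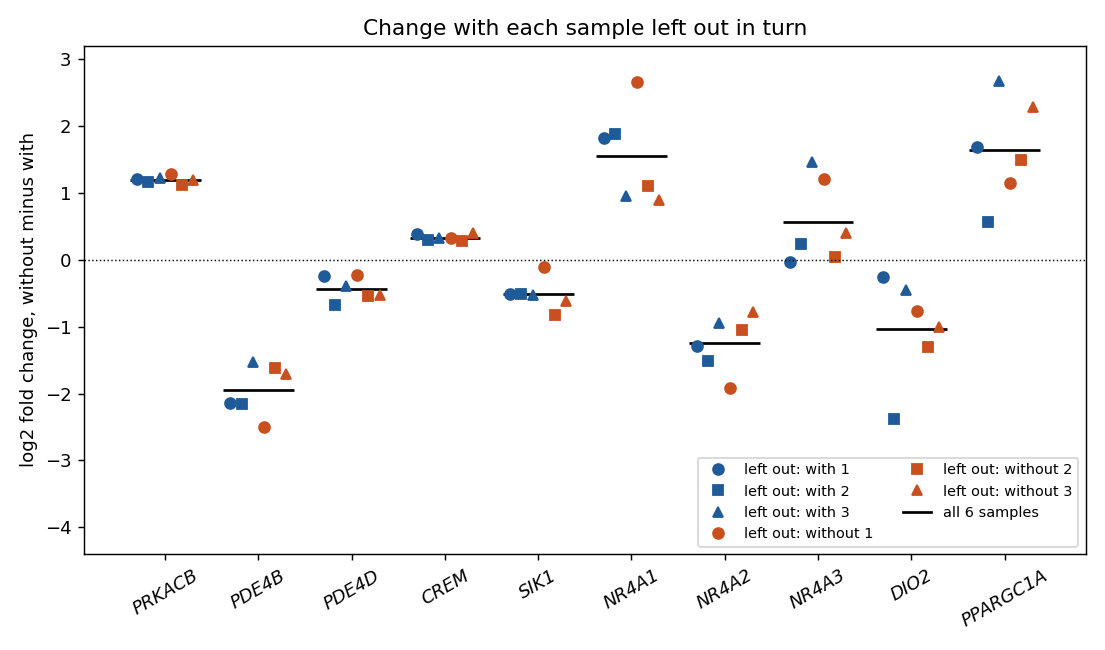
Log2 fold change of the 10 genes, without minus with growth factors, with each sample left out in turn. Points name the sample left out by colour and shape, and lines give the value with all 6 samples. PRKACB stays between 1.12 and 1.28, PDE4B between -2.5 and -1.53, and DIO2 moves from -2.38 to -0.25.

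Levels were compared between the genes per kilobase of exon, as normalized counts divided by the length of all Gencode v44 exons of a gene. In the control PDE4D had the highest level (172 ± 49.6 normalized counts per kilobase, SD, n = 3), followed by DIO2 (135 ± 110), PDE4B (85.4 ± 45.6), NR4A1 (50.7 ± 27.9), PRKACB (47.3 ± 1.89), NR4A2 (42.5 ± 17.2) and CREM (34.3 ± 2.6). PPARGC1A (15.2 ± 17.4), SIK1 (3.82 ± 0.0367, without the copy) and NR4A3 (1.75 ± 2.13) were the lowest. Each gene overlapped with the next in this order over its samples.
After depletion NR4A1 had the highest mean level (195 ± 151 per kilobase), with PDE4D (126 ± 28.9) and PRKACB (109 ± 11.8) next. CREM (43.2 ± 3.68) followed, and all 3 PRKACB samples were above all CREM samples. The levels of DIO2 (39.2 ± 14.6), PPARGC1A (31.3 ± 20.3), PDE4B (24 ± 17.6) and NR4A2 (21.3 ± 18.3) overlapped from one to the next. SIK1 (2.85 ± 1.38) and NR4A3 (2.08 ± 1.48) were again the lowest and overlapped with each other. With the row of the copy added, SIK1 stood at 52.3 ± 16.4 per kilobase in the control and 38.1 ± 23.3 after depletion. Both lay in the middle of the order, so its place at the bottom holds for its own row alone. The summed level is uncertain too, since reads that fit both rows may not have been counted.

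The rest of the pathway was read from 11 lists of 108 genes, of which 80 were tested. Limma called 12 of the 80 (15%), 7 higher and 5 lower after depletion, where 6.33% of all genes were called. The lists were chosen with earlier results of these data known, so this share does not measure a response of the pathway. The median log2 fold change of the 80 was -0.06. At the receptor and cyclase end, PTGER4, a receptor through which prostaglandin E2 raises cAMP, was higher and ADCY3, an adenylyl cyclase, was lower. PTGER4 was the 1 gene called of 8 Gs-coupled receptors tested (list median -0.31). It was at 42.6, 73.2 and 18.7 normalized counts in the control and at 154.7, 693.0 and 487.4 after depletion, and its log2 fold change was 3.23 (SE 0.68, adjusted p 0.0278 by limma). The call of PTGER4 was lost without control replicate 1 (adjusted p 0.0859) and without depleted replicate 2 (0.125) or 3 (0.12), and kept without depleted replicate 1.
ADCY3 was the 1 called of the 4 adenylyl cyclases tested (list median -1.01). It was at 1783.4, 1739.4 and 2167.2 normalized counts in the control and at 660.8, 318.7 and 286.2 after depletion. All depleted samples were far below all control samples, with a log2 fold change of -2.26 (SE 0.36, adjusted p 0.00859 by limma), and the call held with each of the 6 samples left out. ADCY6 was also lower in every depleted sample (log2 fold change -1.15) and did not pass (adjusted p 0.0616 by limma, called by DESeq2). None of the 7 G alpha subunits tested was called by limma, edgeR or DESeq2, with 1 at an unadjusted p under 0.05. That gene was GNAI2, which inhibits adenylyl cyclase (log2 fold change 1.01, adjusted p 0.0902 by limma), and the median of the G alpha list was 0.22. GNAI2 was higher in every depleted sample, and DESeq2 gave it an adjusted p of 0.0291 with a change just under 2-fold.

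Among the subunits and inhibitors of protein kinase A other than PRKACB, 2 of the 3 inhibitors rose and no subunit passed the test. PKIA, PKIG and PKIB encode small peptide inhibitors that bind the free catalytic subunit. PKIA and PKIG were the 2 genes called of the 9 tested, with 7 not called and a list median of -0.23. PKIA was at 33.8, 52.1 and 27.5 normalized counts in the control and at 245.3, 215.7 and 243.7 after depletion. The conditions were far apart, and the log2 fold change of PKIA was 2.65 (SE 0.41, adjusted p 0.00768 by limma). The call of PKIA was lost only without depleted replicate 3 (adjusted p 0.0543). PKIG was at 104.0, 137.7 and 166.3 in the control and at 467.7, 310.8 and 427.1 after depletion, with a log2 fold change of 1.56 (SE 0.35, adjusted p 0.0347 by limma). It was called with 1 of the 6 samples left out, control replicate 3 (adjusted p 0.0158), and missed with each of the others (0.0842 to 0.168). The third inhibitor, PKIB, was at 290.8, 366.7 and 11.8 in the control and at 95.2, 542.2 and 567.9 after depletion, with overlapping ranges and no call (log2 fold change 1.48, adjusted p 0.591 by limma, and -0.08 without control replicate 3). The other catalytic subunits, PRKACA (-0.23) and PRKX (-0.67), and the 4 regulatory subunits (log2 fold changes -0.76 to 0.07) did not pass.
A-kinase anchoring proteins hold protein kinase A at sites in the cell. Of 11 tested, AKAP5 was called as higher (log2 fold change 2.41, SE 0.58, adjusted p 0.046 by limma) and AKAP1, the mitochondrial anchor, as lower (-1.02, SE 0.25, adjusted p 0.0483), and the list median was -0.03. AKAP5 ran from 10.0 to 28.5 normalized counts in the control and from 56.7 to 130.5 after depletion, and AKAP1 from 1414.6 to 1478.8 and from 648.4 to 797.2. AKAP1 was also missed after rescaling to equal totals (0.0583), after quantile normalization (0.0587), without the trend (0.0979) and by DESeq2, where its change was just under 2-fold, and AKAP5 after rescaling (0.0524) and at a mean of at least 50 (0.0708). Neither was called by edgeR (adjusted p 0.0556 for AKAP5 and 0.0585 for AKAP1), and each was called by limma only without control replicate 3 among the 6 samples left out in turn (adjusted p 0.0145 and 0.0258, against 0.0546 to 0.211 and 0.0834 to 0.229 without the others). Of the 5 other cAMP effectors tested (list median -0.74), BVES, a cAMP-binding membrane protein, was the 1 called. It was at 116.6, 45.1 and 103.3 in the control and at 236.1, 594.0 and 668.5 after depletion (log2 fold change 2.46, SE 0.53, adjusted p 0.0314 by limma). BVES stayed called without control replicate 3 (adjusted p 0.0285) or depleted replicate 1 (0.0186) and missed without the others (0.0619 to 0.144) and without the limma trend (0.0522).

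**Figure D5:**
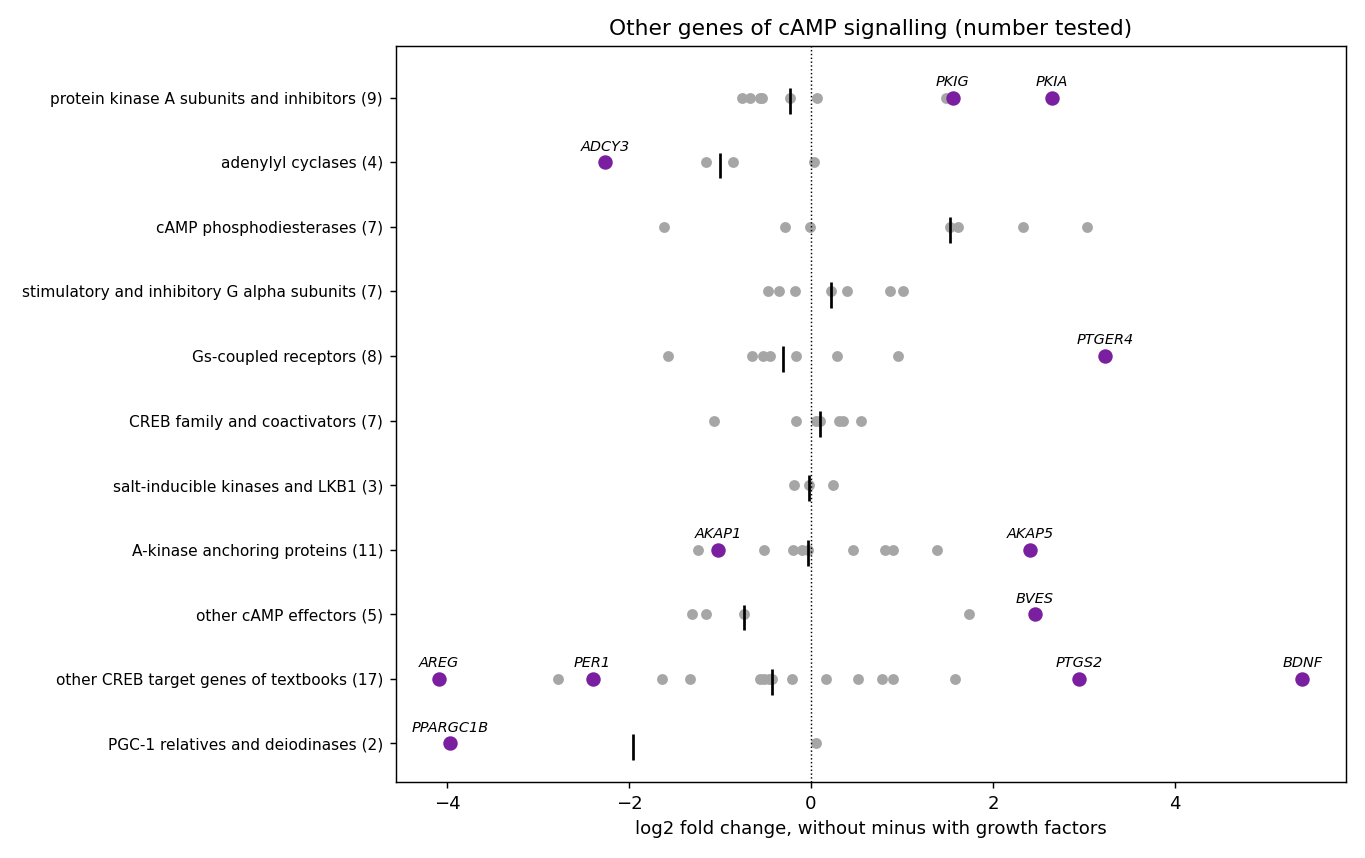
Log2 fold change, without minus with growth factors, of the 80 other genes of cAMP signalling, by list with the number tested. Each point is a gene, purple and named where called by limma, and the bar is the list median. Called genes run from AREG and PPARGC1B at -4.09 and -3.97 to BDNF at 5.40.

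Of the 7 other cAMP phosphodiesterases tested, 0 were called by limma or edgeR and 1 by DESeq2, with 3 at an unadjusted p under 0.05 by limma and a list median of 1.53. PDE1C, a calcium-stimulated phosphodiesterase, had the largest difference. It was at 675.5, 229.1 and 47.2 normalized counts in the control and at 1642.0, 1663.4 and 1489.1 after depletion, so that all depleted samples were above all control samples. Its log2 fold change was 3.03 (SE 0.80), with an adjusted p of 0.0649 by limma, 0.115 by edgeR and 0.0109 by DESeq2. Without control replicate 1 (adjusted p 0.0204) or 3 (0.0269) limma called PDE1C.
The CREB family and its coactivators showed no call by limma, edgeR or DESeq2 among 7 tested, with 1 at an unadjusted p under 0.05. ATF1, a close relative of CREB1, had the largest difference. It was at 918.6, 818.4 and 878.5 in the control and at 601.3, 393.4 and 301.9 after depletion, with a log2 fold change of -1.07 (SE 0.32, adjusted p 0.0961 by limma). The list median was 0.10, and CREB1 itself had a log2 fold change of 0.31 (adjusted p 0.639 by limma). The relatives and activator of SIK1 (SIK2, SIK3 and STK11) gave 0 calls by limma, edgeR and DESeq2 and 0 genes at an unadjusted p under 0.05, with a list median of -0.02. SIK3 had the largest difference of these 3, at 0.24 (adjusted p 0.833 by limma), and -0.08 without control replicate 2.

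Textbook targets of CREB outside the 10 genes also moved both ways. Of 17 tested, 2 were called as higher and 2 as lower, 13 were not called, and the list median was -0.43. BDNF, a neurotrophin gene with cAMP-responsive promoters, was at 22.6, 5.3 and 14.8 normalized counts in the control and at 665.4, 438.6 and 601.5 after depletion. No other gene of the lists rose as much, and its log2 fold change was 5.40 (SE 0.55, adjusted p 0.00155 by limma). PTGS2, the inducible cyclooxygenase that feeds prostaglandin E2 synthesis, went from 43.9, 19.3 and 28.5 to 117.2, 280.6 and 373.4 (log2 fold change 2.95, SE 0.56, adjusted p 0.0182 by limma). The call of PTGS2 was lost without control replicate 2 (adjusted p 0.0578) and without depleted replicate 2 (0.093) or 3 (0.0994). PTGS2 and PTGER4 are, like PRKACB, in the Runx networks the study chose on these samples, so that listing is no independent evidence of their direction.
AREG, an EGF receptor ligand, fell from 950.0, 3951.0 and 565.6 to 85.1, 59.0 and 82.7 (log2 fold change -4.09, SE 0.65, adjusted p 0.0084 by limma). PER1, a circadian clock gene with a cAMP response element, fell from 754.5, 785.0 and 418.1 to 249.0, 112.8 and 58.1 (log2 fold change -2.40, SE 0.54, adjusted p 0.0364 by limma). PER1 was not called by edgeR (adjusted p 0.0545) or by limma without the trend (0.0639), and limma kept its call without control replicate 3 (0.0248) or depleted replicate 1 (0.0143) and not without the others (0.112 to 0.132). BDNF and AREG were called with each of the 6 samples left out. FOS, the classical immediate early target, ranged from 199.3 to 3228.6 in the control and from 24.6 to 1287.1 after depletion, and did not pass (log2 fold change -2.78, adjusted p 0.366 by limma).
PPARGC1B, the nearest relative of PPARGC1A, was called where PPARGC1A was not. It was at 899.8, 738.8 and 414.2 normalized counts in the control and at 22, 84.6 and 35.8 after depletion. All depleted samples were below all control samples, with a log2 fold change of -3.97 (SE 0.55, adjusted p 0.00488 by limma), kept with each of the 6 samples left out. A difference between the changes of PPARGC1A and PPARGC1B was not tested. The other relative tested, PPRC1, had a log2 fold change of 0.05 (adjusted p 0.968 by limma).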

How the data were processed

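RNA-Seq of MCF10A cells was analysed in 6 samples, grouped by the labels. The authors depleted ribosomal RNA, made stranded libraries, sequenced single-end reads of 100 bases, trimmed with cutadapt 1.6, mapped to hg38 with TopHat2 and counted genes of Gencode v22 with HTSeq 0.6. The deposited signal is the count divided by the sample's size factor from DESeq2 1.8.1, with no division by length. All values were whole reads within 0.01 reads after the scaling was undone. The filter that set which genes were listed is not given in the sources used here. Gene names came from Gencode v44, which held 18913 of the 19198 identifiers.

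Conditions were compared with limma 3.58.1 (with a trend) in R 4.3.3 on log2(normalized count + 1), for 16988 genes with a mean of at least 10. Fold changes are on that scale, which understates changes of low genes. The quasi-likelihood test of edgeR 4.0.16 and DESeq2 1.42.0 on recovered reads, called by the same thresholds, were alternatives, besides pseudocounts of 0.5 and 10, no filter, a mean of at least 50, rescaling to equal totals, quantile normalization, no trend, the replicate block and each sample left out. The sum of SIK1 and its copy was added after seeing the data. Scripts were tested on simulated data. The members and lists were chosen with earlier results of these data known. Named genes are the 10 members, the called genes of each list or, with none called, the one with the largest change, and the gene most like a called member, which is not reported here. CREB1, FOS, ADCY6, PKIB, PRKACA, PRKX and PPRC1, and the cell type markers named, were named after their values were seen.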

Additional observations from a re-analysis of the deposited data

How the results depend on the processing

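The count of all genes called by limma (1076) was 2112 by DESeq2 and ran from 453 (without depleted replicate 2) to 2474 (without control replicate 3) with one sample left out. It was within 1.5 times of 1076 under the other settings. Of the 10 cAMP and CREB response genes, limma called 1 (PRKACB). It called 0 without the trend (adjusted p of PRKACB 0.0612) and 0 with the replicate block (0.139), each with 2 genes at an unadjusted p under 0.05. Over all genes, 3261 without the trend and 2797 with the block were at an unadjusted p under 0.05 by limma. DESeq2 called 2 of the 10, and leaving out 1 sample gave 0 to 2 calls by limma. Which gene was called changed with the sample, being DIO2 without control replicate 2, and NR4A1 and PDE4B without depleted replicate 1. Of the 80 other pathway genes, limma called 12, and 4 (without depleted replicate 3) to 14 (without control replicate 3) with one sample left out. It was 9 by edgeR, 13 by DESeq2 and 11 with the block. The sign turned for NR4A3 under quantile normalization (-0.01) and without control replicate 1 (-0.03), and for SIK3 without control replicate 2 (-0.08, and up to 0.79 without another sample). With one sample left out, PKIB ran from -0.08 to 2.34, PRKACA from -0.51 to 0.12 (0.02 without control replicate 3) and PPRC1 from -0.25 to 0.35 (-0.17 without depleted replicate 1), none called. NR4A3 and SIK1 have no value at a mean of at least 50. The cause of these changes was not tested, and the fits with a sample left out also have fewer samples. Same-numbered samples of the conditions did not deviate together (correlations -0.073, -0.283 and -0.323 across genes). This gave no sign that the numbers pair the samples, but with so few samples it cannot exclude a pairing. The block gave 967 calls over all genes, and it also took the calls of PKIG (0.094), AKAP1 (0.191) and AKAP5 (0.0726) and gave calls to PDE1C (0.0131) and FOS (-2.78, 0.0183). Of 527 values of the named members and pathway genes under all settings, 458 kept their direction and their side of the threshold, 51 lost the call, 10 gained one and 8 changed sign. Reads per sample were lowest for NR4A3 (2 to 34) and for the row of SIK1 (7 to 34), which shares its reads with the copy.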
